A study of Mus musculus with 6 samples.

Results

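The FK506-binding proteins (FKBPs) are a family of peptidyl-prolyl isomerases, and 10 of the 38553 genes in the expression table were taken here by name, namely *Fkbp2*, *Fkbp7*, *Fkbp9*, *Fkbp10*, *Fkbp11* and *Fkbp14*, whose proteins are known from the endoplasmic reticulum (ER), and *Fkbp1a*, *Fkbp3*, *Fkbp4* and *Fkbp5*, whose proteins are known from the cytosol or nucleus. *Fkbp7* and *Fkbp14* were chosen by their FPKM in these same samples, which was lower in the mutants, and the others because they are their paralogs. The values of *Fkbp7* and *Fkbp14* between the genotypes are therefore given as a description with no test, and the same was done for the other 8 genes. The location of a protein cannot be read from RNA, so the division into ER and other members is background knowledge.

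The study asked how loss of the splicing factor *Rbfox2* in the neural crest alters the developing face. RNA-Seq was made from craniofacial tissue dissected from mouse embryos at E12.5, in mid-gestation, from 3 controls and 3 *Rbfox2* mutants, each an independent biological replicate. Y-linked RNA, which marks male embryos, was very low in all controls and high in some mutants. Sex was therefore not balanced between the groups. Controls were Rbfox2 flox/flox without Cre, and mutants were Pax3Cre/+:Rbfox2 flox/flox, so both groups carried the floxed alleles while the mutants alone carried the Cre. Pax3-Cre acts in neural crest and in other cells that express *Pax3*, such as the dorsal neural tube and somites, and it is inserted in *Pax3*, so that loss of *Rbfox2* and the presence of the Cre allele cannot be told apart. Values are FPKM, fragment numbers scaled to gene length and sample depth, which can be set side by side between paralogs.

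Proline can take a cis or a trans form in a peptide chain, and the slow change between them can limit the folding of proline-rich proteins such as collagens. Prolyl isomerases of the FKBP and cyclophilin families speed this step. Within the ER, FKBP proteins act on secreted and membrane proteins alongside the chaperone BiP and the enzymes that modify procollagen, and inherited loss of human FKBP14 or FKBP10 is known to cause connective tissue disease. Rbfox proteins bind the RNA letters UGCAUG, written TGCATG in DNA, and change the inclusion of nearby exons.

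In the annotation, *Fkbp7* (ENSMUSG00000002732) lies on the minus strand of GRCm38 at chr2:76663044-76673116 and *Fkbp14* (ENSMUSG00000038074) on the minus strand at chr6:54577604-54597308. Both genes had a principal coding transcript of 4 exons, with 860 bases for *Fkbp7-201* and 2694 bases for *Fkbp14-201*, and both had 1 transcript classed as a target of nonsense-mediated decay, the pathway that removes RNAs with an early stop codon. In each gene, that transcript carried an extra exon between exons 2 and 3 of the principal transcript. The extra exon of *Fkbp7-204* had 116 bases (chr2:76667327-76667442) and that of *Fkbp14-207* had 90 bases (chr6:54586996-54587085). Exon 2, just before it, had 152 bases in both genes. Read from the annotated start codon, the first in-frame stop codon began at base 9 of the extra exon in *Fkbp7-204*, where it was TGA, and at base 6 in *Fkbp14-207*, where it was TAG. The exons are shown 5′ to 3′ on the strand of the gene because they are a feature that the paralogs with the low mutant values share, with TGCATG in capitals.

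Fkbp7 extra exon: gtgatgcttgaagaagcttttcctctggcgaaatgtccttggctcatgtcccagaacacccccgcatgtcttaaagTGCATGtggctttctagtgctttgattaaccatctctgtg
Fkbp14 extra exon: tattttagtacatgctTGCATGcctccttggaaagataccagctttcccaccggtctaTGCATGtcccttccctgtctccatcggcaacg

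The exon of *Fkbp7* held TGCATG 1 time and that of *Fkbp14* held it 2 times. Neither principal transcript held it, in a length class where 24.7% of 2010 coding transcripts like *Fkbp7-201* and 51.6% of 5368 like *Fkbp14-201* did. Across the annotation there were 957 exons of 72 to 145 bases, in 849 genes, that lie inside a principal transcript's span but outside its exons and are internal to a nonsense-mediated decay transcript, and 3.24% of them held TGCATG. Decay transcripts were also annotated for *Fkbp2*, *Fkbp10* and *Fkbp3* among the 10 genes. Those of *Fkbp2* and *Fkbp10* held no TGCATG, and the pair from *Fkbp3* held 1 each, in sequence that is also in its principal transcript. The decay transcript of *Fkbp2* also had an exon outside its principal transcript, of 552 bases, as its first exon. Among whole decay transcripts of like length, TGCATG was in 14.9% for that of *Fkbp7* and 52.2% for that of *Fkbp14*. Outside decay transcripts, it was also in the principal transcript of *Fkbp9* and another coding transcript of *Fkbp4*. Transcripts of *Fkbp10*, *Fkbp1a* and *Fkbp5* that are not classed as coding held it too. The letters alone therefore do not set *Fkbp7* and *Fkbp14* apart. The study reported UGCAUG to be enriched in introns of its Rbfox2 targets and in no other gene part that it examined. Only the sense strand of annotated transcripts was searched here, and introns were not. The deposited values are per gene, so the amount of any of these transcripts was not measured here. The study itself listed transcripts of both genes among those it called alternatively spliced, at lower levels in mutants. Which of the annotated transcripts above these are was not worked out. The search was made because these genes had been chosen, and whether the exons take part in the differences below was not tested.

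*Fkbp7*, an ER protein with an FKBP domain and calcium-binding EF hands, had 20.7, 25.9 and 26.7 FPKM in the 3 controls and 7.88, 10.4 and 7.95 FPKM in the 3 mutants. The highest mutant stood well under the lowest control, and no sample fell between the groups. Controls averaged 24.4 ± 3.29 FPKM (SD, n = 3) and mutants 8.75 ± 1.45 FPKM (SD, n = 3), so that 35.8% of the control level remained. On the log2(FPKM + 1) scale the difference was -1.38 with a standard error of 0.14, and within replicate numbers 1, 2 and 3 it was -1.29, -1.24 and -1.63. Of all 10061 genes tested, 0.0497% had a log2 fold change as low or lower. *Fkbp7* was chosen by this same contrast, so a low rank follows from the choice. In bulk tissue such as this, fewer cells that express a gene and less of its RNA per cell cannot be told apart.

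*Fkbp14*, which has the same arrangement of FKBP domain and EF hands, had 15.2, 15.8 and 14.03 FPKM in controls and 8.60, 7.47 and 6.45 FPKM in mutants. The groups again did not overlap, and the controls were close together. The means were 15.0 ± 0.913 (SD, n = 3) and 7.51 ± 1.08 (SD, n = 3), so that the mutant mean was 50.01% of the control mean. The log2 difference was -0.92 with a standard error of 0.11, and it was -0.75, -0.99 and -1.01 within the replicate numbers. The order of the pair was kept in the controls, each of which had more *Fkbp7* than *Fkbp14*, but mutant replicate 1 had less. The ratio of *Fkbp7* to *Fkbp14* was 1.36, 1.64 and 1.90 in controls and 0.916, 1.40 and 1.23 in mutants, and these ranges overlap.

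All 10 of the 10 FKBP genes passed the filter of over 5 FPKM in every sample of at least 1 group. The mutants lay below every control in 2 of them, *Fkbp7* and *Fkbp14*, beside 2.37% of all genes tested, and that contrast was used to choose the pair. None of the 10 had all mutants above all controls, beside 2.63% of all genes. The median log2 difference over the 10 genes was -0.036, and over all genes tested it was 0.0057. The other 8 genes had log2 differences from -0.080 to 0.13, so no further paralog was lower to a like extent in these samples.

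**Figure D1:**
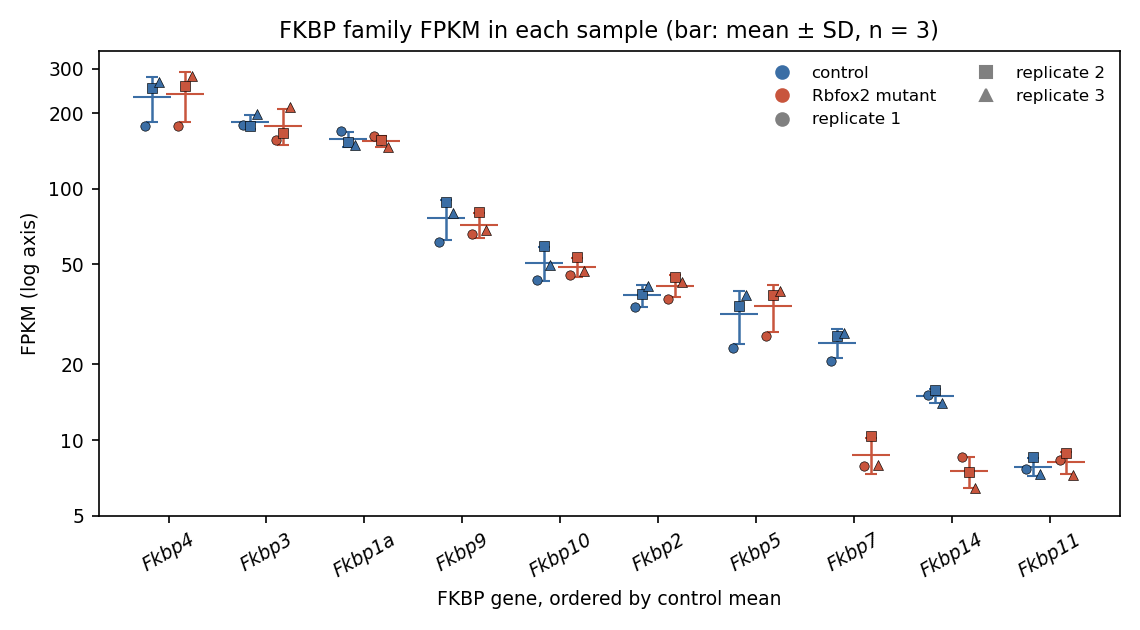
FPKM on a log axis for the 10 FKBP genes, ordered by control mean, with control samples in blue, mutant samples in red, a marker shape for each replicate number and a bar with whiskers for the mean ± SD of 3 samples. *Fkbp7* and *Fkbp14* are the genes whose red points all lie under the blue points, with mutant means of 8.75 and 7.51 FPKM.

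*Fkbp9* and *Fkbp10*, the ER members with several FKBP domains in a row, were the most abundant of the ER genes. *Fkbp9* had 61.4, 88.4 and 80.0 FPKM in controls and 66.0, 80.8 and 68.8 FPKM in mutants, and the mutants lay inside the range of the controls. Its means were 76.6 ± 13.8 (SD, n = 3) and 71.9 ± 7.88 (SD, n = 3), with a log2 difference of -0.080 (standard error 0.15). *Fkbp10*, which acts with lysyl hydroxylase on type I procollagen, had 43.2, 59.1 and 49.96 FPKM in controls and 45.5, 53.6 and 47.2 FPKM in mutants. Its mutants were again inside the control range, and the log2 difference was -0.049 (standard error 0.13).

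*Fkbp2*, a small single-domain ER protein, had 33.8, 38.2 and 41.0 FPKM in controls and 36.5, 44.5 and 42.6 FPKM in mutants. Although the groups overlapped, the mutant was the higher sample in each replicate number, by 0.11, 0.22 and 0.053 on the log2 scale. The mutant mean was 109% of the control mean, and the log2 difference was 0.13 with a standard error of 0.11. *Fkbp11*, a membrane-anchored ER protein of secretory cells, was the least abundant of the 10 in controls. It had 7.65, 8.55 and 7.33 FPKM in controls and 8.31, 8.90 and 7.27 FPKM in mutants. The groups overlapped through most of their range, with a log2 difference of 0.049 (standard error 0.10).

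Of the cytosolic and nuclear members, *Fkbp4*, *Fkbp3* and *Fkbp1a* were the 3 most abundant FKBP genes of the 10, while *Fkbp5* was 7th. *Fkbp4* and *Fkbp5* encode co-chaperones that join Hsp90 to steroid hormone receptors. *Fkbp4* had 177, 251 and 267 FPKM in controls and 178, 256 and 282 FPKM in mutants, and its log2 difference was 0.039 (standard error 0.22). *Fkbp5* had 23.2, 34.1 and 37.7 FPKM in controls and 25.9, 37.8 and 39.1 FPKM in mutants, with a log2 difference of 0.12 (standard error 0.22). In both co-chaperone genes the first replicate was the lowest sample of its group. *Fkbp3*, whose protein is nuclear and binds nucleic acids, had 179, 178 and 198 FPKM in controls and 157, 167 and 211 FPKM in mutants, so that the mutants held both the lowest and the highest value. *Fkbp1a*, the small cytosolic target of the drugs FK506 and rapamycin, had 170, 153 and 150 FPKM in controls and 162, 157 and 147 FPKM in mutants. Its log2 difference was -0.023 with a standard error of 0.088, the smallest standard error of the 10 genes, and that of *Fkbp3* was -0.060 (standard error 0.13).

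**Figure D2:**
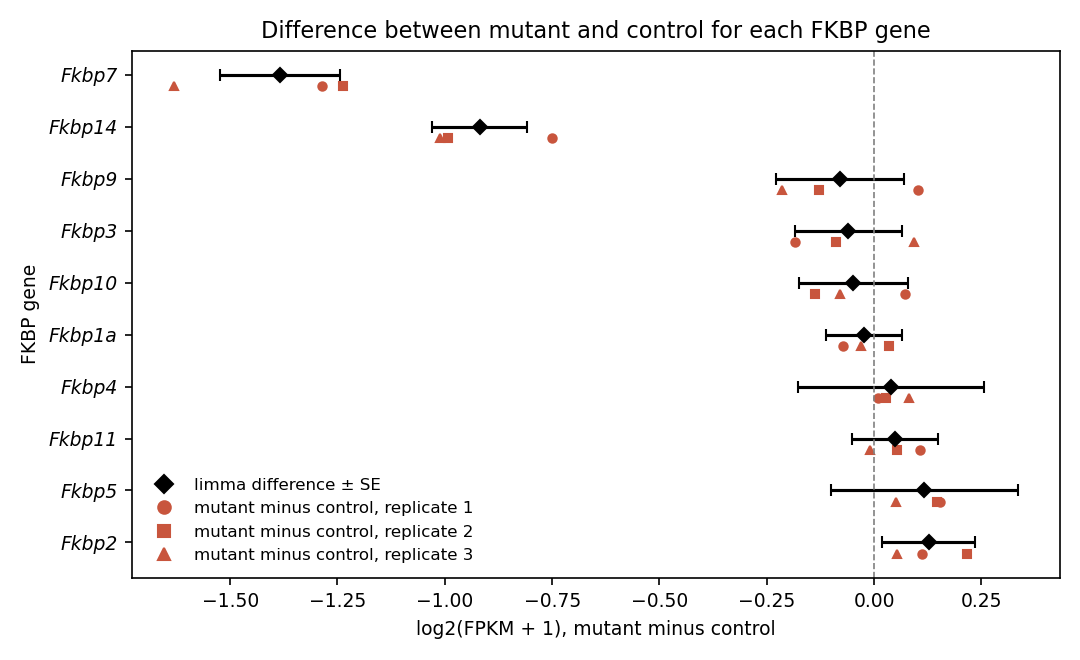
Differences of log2(FPKM + 1), mutant minus control, for the 10 FKBP genes, with black diamonds and whiskers for the limma difference ± its standard error and red markers for the difference within each replicate number. *Fkbp7* (-1.38) and *Fkbp14* (-0.92) lie apart from the other 8 genes, which lie between -0.080 and 0.13.

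The order of abundance in controls was *Fkbp4*, *Fkbp3*, *Fkbp1a*, *Fkbp9*, *Fkbp10*, *Fkbp2*, *Fkbp5*, *Fkbp7*, *Fkbp14* and *Fkbp11*. The control ranges of neighbours overlapped for *Fkbp4* and *Fkbp3*, for *Fkbp2* and *Fkbp5*, and for *Fkbp5* and *Fkbp7*, so the order within these pairs did not stand beyond the spread between controls, although *Fkbp2* was above *Fkbp5* and *Fkbp5* above *Fkbp7* in 6 of 6 samples. The widest step between neighbours was from *Fkbp1a* to *Fkbp9*, with a ratio of control means of 2.06. The step from *Fkbp7* to *Fkbp14* was 1.63 and that from *Fkbp14* to *Fkbp11* was 1.91. In the mutants *Fkbp14* stood below *Fkbp11* by its mean, at 7.51 against 8.16 FPKM, and *Fkbp14* was above *Fkbp11* in 4 of 6 samples. These mutant ranges overlapped. Among all genes tested, the control mean of *Fkbp4* stood at the 96.9th percentile, that of *Fkbp9* at the 88.5th, that of *Fkbp7* at the 57.2nd, that of *Fkbp14* at the 37.2nd and that of *Fkbp11* at the 11.8th.

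*Fkbp7* and *Fkbp14* were minor parts of the ER FKBP RNA in controls already. The summed FPKM of the 6 ER genes was 182, 236 and 219 in controls and 173, 206 and 180 in mutants, which overlap. *Fkbp7* and *Fkbp14* made up 19.7%, 17.7% and 18.6% of that sum in controls and 9.54%, 8.69% and 7.99% in mutants, and here the groups were far apart. Together they came to 39.4 ± 3.17 FPKM (SD, n = 3) among controls and 16.3 ± 1.76 FPKM (SD, n = 3) among mutants, a difference of 23.2. The whole ER sum differed by 26.0, but this value hung on single libraries, at 14.2 without control replicate 2, 41.2 without control replicate 1 and 19.3 to 35.8 when any 1 of the other 4 was left out. The other 4 ER genes summed to 173 ± 24.5 FPKM (SD, n = 3) among controls and 170 ± 16.2 FPKM (SD, n = 3) among mutants. The share of *Fkbp2* in the ER sum was 17.8% ± 1.43 (SD, n = 3) among controls and 22.1% ± 1.32 (SD, n = 3) among mutants, and that of *Fkbp9* was 35.9% ± 1.92 and 38.5% ± 0.642. A share of a sum must grow in some genes when it drops in others, so these higher shares are not separate measurements of *Fkbp2* or *Fkbp9*.

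**Figure D3:**
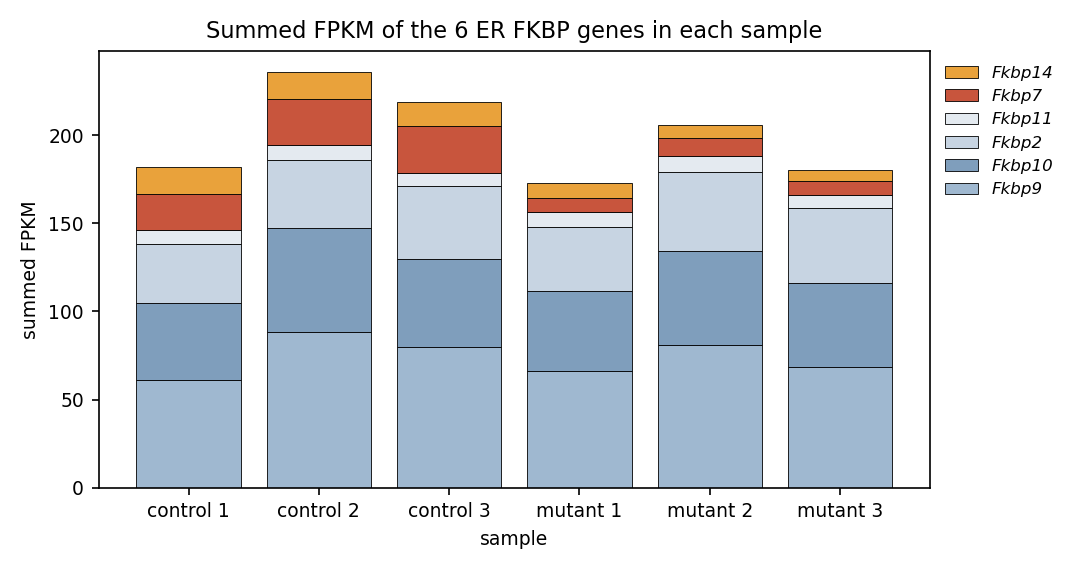
Summed FPKM of the 6 ER FKBP genes in each of the 6 samples, stacked by gene, with *Fkbp7* in red and *Fkbp14* in orange on top of the other 4 genes in blue and grey. The red and orange blocks together take 17.7% to 19.7% of the bar in controls and 7.99% to 9.54% in mutants, while the bars below them overlap in height between the groups.

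*Fkbp7* and *Fkbp14* stand back to back with *Plekha3* and *Plekha8*, which lie on the other strand and are themselves paralogs that encode phosphoinositide-binding proteins of the Golgi. The starts of the principal transcripts were 2211 bases apart for *Fkbp7* and *Plekha3* and 1934 bases apart for *Fkbp14* and *Plekha8*, and by its longest annotated extent *Fkbp14* overlaps *Plekha8*. *Plekha3* had 10.2, 8.25 and 9.46 FPKM in controls and 10.1, 8.86 and 9.32 FPKM in mutants. Its log2 difference was 0.022 with a standard error of 0.0996, and 2 standard errors on either side reached from -0.18 to 0.22 (limma, adjusted p = 1.0). *Plekha8* had 12.3, 13.7 and 13.95 FPKM in controls and 13.5, 13.2 and 14.8 FPKM in mutants, with a log2 difference of 0.054 between -0.12 and 0.23 (limma, adjusted p = 1.0). Both intervals leave out the differences of the FKBP gene beside them, and neither p shows that these genes did not change. Libraries were stranded, but the step that assigned fragments to genes is not described in the sources used here, so the value of an overlapping pair is less certain.

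**Figure D4:**
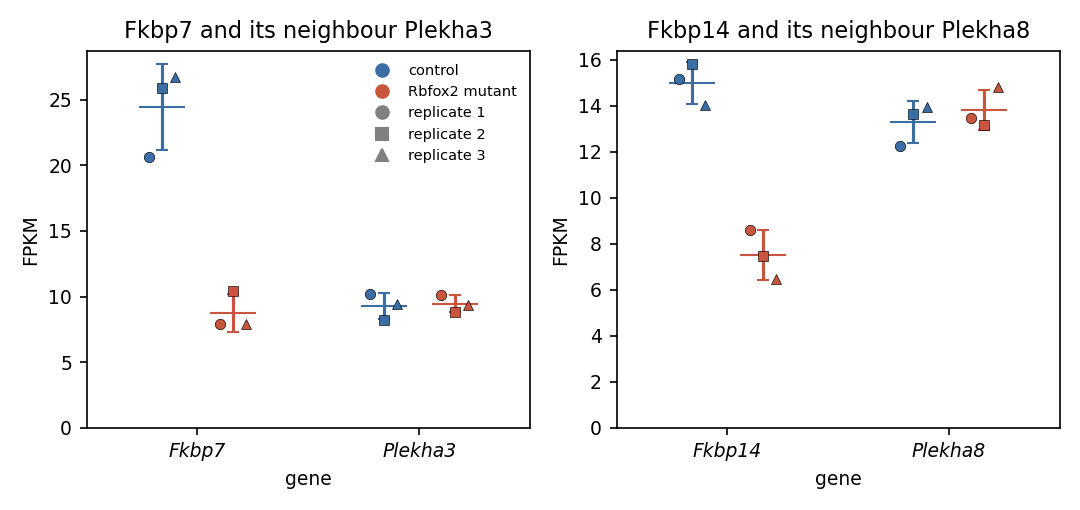
FPKM in each sample for *Fkbp7* with *Plekha3* on the left and *Fkbp14* with *Plekha8* on the right, with controls in blue, mutants in red and bars for the mean ± SD of 3 samples, on axes that start at 0. The FKBP gene of each pair is lower in the 3 mutants while the control and mutant points of the neighbour overlap.

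The neighbours of the other members were also measured. Near *Fkbp10* lie *P3h4*, deposited as *Leprel4* and encoding a partner of the lysyl and prolyl hydroxylases, and *Nt5c3b*, which overlaps it. Their log2 differences were 0.017 (standard error 0.096) for *Leprel4* and -0.034 (standard error 0.10) for *Nt5c3b*. *Plcb3* beside *Fkbp2* was at -0.078, and *Prpf39* and *Fancm* beside *Fkbp3* were at -0.19 and -0.022. For these 5 genes limma gave an adjusted p of 1.0. Non-coding genes near members were too low to test. *Gm10069* near *Fkbp4* had 0.624 ± 0.155 FPKM (SD, n = 3) among controls and 0.867 ± 0.176 FPKM (SD, n = 3) among mutants, *Gm14167* near *Fkbp1a* was under 1 FPKM in all 6 samples, and *Gm22146* within *Fkbp5* was listed at 0 in all 6. *Nt5c3*, which stands on a list with these genes but outside the distance of 5 kb, was at 0.088.

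The promoters of *Fkbp7* and *Fkbp14* are shown because the genes differ together. They are 275 bases each, 250 before and 25 after an annotated start, from RefSeq on GRCm38.p6, where 9 of the 10 genes had an entry and *Fkbp10* did not. That of *Fkbp7* is at chr2:76673074-76673348 and that of *Fkbp14*, at the start of its principal transcript, is at chr6:54593150-54593424, both on the minus strand. Capitals mark the CCAAT box, the letters CCACG that can follow it in stress-response elements, and the Sp1 core GGGCGG, each searched on both strands.

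Fkbp7 promoter: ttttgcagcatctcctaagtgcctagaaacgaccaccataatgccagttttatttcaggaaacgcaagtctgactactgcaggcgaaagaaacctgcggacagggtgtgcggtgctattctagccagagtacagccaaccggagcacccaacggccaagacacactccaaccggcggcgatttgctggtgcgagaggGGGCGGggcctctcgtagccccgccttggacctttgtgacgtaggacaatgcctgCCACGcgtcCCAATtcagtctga
Fkbp14 promoter: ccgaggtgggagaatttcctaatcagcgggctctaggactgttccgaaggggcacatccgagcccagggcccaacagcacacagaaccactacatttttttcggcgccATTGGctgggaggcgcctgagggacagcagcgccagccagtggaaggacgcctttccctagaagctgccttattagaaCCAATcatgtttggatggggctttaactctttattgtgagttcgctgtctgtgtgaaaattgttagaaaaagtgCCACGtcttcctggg

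CCAAT, the box bound by NF-Y, was found 1 time in the *Fkbp7* promoter and 2 times in the *Fkbp14* promoter, and in 35.8% of all 32851 promoters of this length. CCACG was found 1 time in each and in 30.7% of all promoters. The ER stress response element, which joins CCAAT and CCACG with 9 free letters between, was in neither and in 0.116% of all. TGACGT, the core of the sites bound by Creb and Atf proteins, was found 1 time for *Fkbp7* and not for *Fkbp14*, and in 7.17% of all promoters. GGGCGG, the core of Sp1 sites, was likewise found 1 time for *Fkbp7* only, and in 34.4% of all. Apart from CCAAT and CCACG the windows therefore shared no searched motif, and these matches are descriptions of sequence. A window of *Fkbp2*, of *Fkbp11* and of *Fkbp5* also held both CCAAT and CCACG, while those of *Fkbp9*, *Fkbp1a*, *Fkbp3* and *Fkbp4* did not. Holding both was therefore not particular to *Fkbp7* and *Fkbp14*. Counted from the start, CCAAT began at 11 and CCACG at 2 in *Fkbp7*, so both lay after the start, with CCACG first. In *Fkbp14* CCAAT began at -142 and -64 and CCACG at 10. The window at the other annotated start of *Fkbp14* held none of the searched motifs.

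First replicates of both genotypes stood apart from the other 4 samples on the first principal component, at -19.1 and -17.0 against 7.55 to 11.01, and several FKBP genes moved with them. Both first replicates lay below all 4 other samples for *Fkbp4*, *Fkbp5*, *Fkbp9*, *Fkbp10* and *Fkbp2*, beside 34.7% of all genes tested, and both lay above them for *Fkbp1a*, beside 18.4%. First replicates minus the others gave a log2 difference of -0.57 for *Fkbp4*, -0.58 for *Fkbp5*, -0.31 for *Fkbp9*, -0.23 for *Fkbp10* and -0.24 for *Fkbp2*. For these 5 genes, the replicate difference was larger in size than the difference between genotypes. For *Fkbp7* it was -0.26 and for *Fkbp14* 0.15, both smaller than their genotype differences. What sets the first replicates apart is not given in the labels and was not tested.

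**Figure D5:**
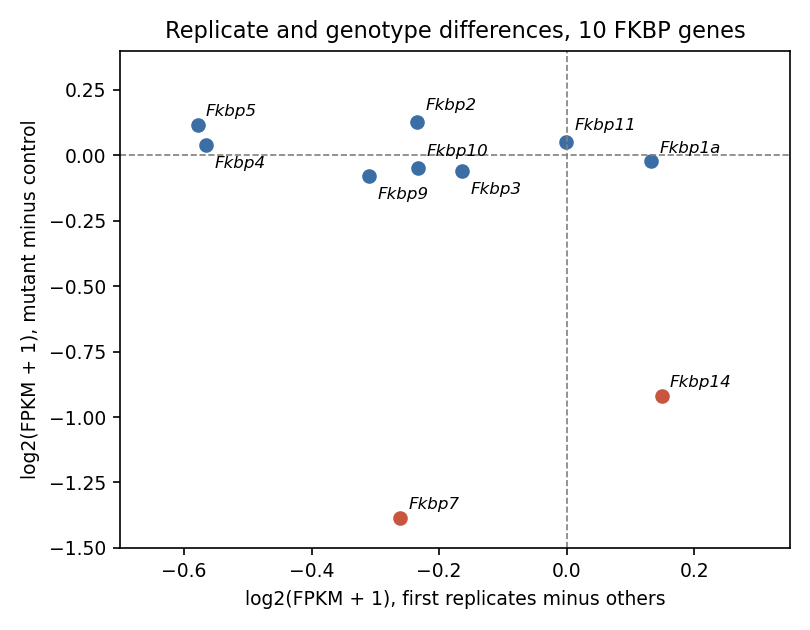
Each point is 1 of the 10 FKBP genes, placed by the log2(FPKM + 1) difference of the first replicates from the other 4 samples (horizontal) and of mutants from controls (vertical). *Fkbp7* and *Fkbp14*, in red, lie low on the vertical axis at -1.38 and -0.92, while *Fkbp4* and *Fkbp5* lie farthest to the left at -0.57 and -0.58.

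Across the 6 samples, *Fkbp7* and *Fkbp14* had a Pearson r of 0.94 with each other, and *Fkbp9* and *Fkbp10* one of 0.97, as did *Fkbp4* and *Fkbp5* at 0.98. These are values over 6 points that share genotype and the split of the first replicates, and they are given as a description. *Fkbp7* and *Fkbp14* were chosen as low in mutants and *Rbfox2* was deleted there, so a high r with it follows from that choice. Among the 10060 other genes tested, 25 had an r over 0.9 with *Fkbp7*. The highest of these was that of *Rbfox2*, at 0.975. It was followed by *Gpr108* at 0.975, *Snrnp48* at 0.969, *Csrp1* at 0.963 and *Gm16136* at 0.962. For *Fkbp14*, 31 genes had an r over 0.9. The closest were *Rbfox2*, at 0.986, and then *Gm16136* at 0.980, *Acp6* at 0.977, *Fam126a* at 0.977 and *Gatm* at 0.970. *Rbfox2*, the deleted gene, had 58.4, 65.0 and 61.3 FPKM in controls and 38.1, 36.3 and 34.3 FPKM in mutants, a log2 difference of -0.75 (standard error 0.079, limma adjusted p = 0.138). Its adjusted p was 0.0296 with a term for the first replicates, 0.0407 on replicates 2 and 3 only and 0.0852 with the replicate block. The RNA that remained can include unrecombined cells and transcripts from the deleted allele, which gene values do not separate. *Acp6* had a log2 difference of -0.57, *Gm16136* of -0.53 and *Fam126a* of -0.35, each smaller in size than that of *Fkbp14*.

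By limma, 0 of the genes tested passed an adjusted p of 0.05, while 96 genes were lower and 71 higher in mutants at an unadjusted p under 0.05, which is 0.954% and 0.706% of those tested, and 1.66% in both directions together. With the replicate number as a block these were 372 and 232. The counts that follow are read beside these shares.

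Of 7 other genes with an FKBP domain, 5 passed the filter and none had an unadjusted p under 0.05, with a median log2 difference of 0.018. *Fkbp6* and *Aipl1* had control means under 1 FPKM. *Fkbp8*, a mitochondrial and ER membrane protein and the most abundant of them, had 139 ± 4.39 FPKM (SD, n = 3) among controls and 148 ± 10.4 (SD, n = 3) in mutants. *Fkbp1b*, the close paralog of *Fkbp1a*, had 8.31, 10.4 and 8.15 FPKM in controls and 7.83, 7.47 and 6.20 FPKM in mutants. The mutants were the lower group there without overlap, with a log2 difference of -0.28 (standard error 0.12, limma adjusted p = 1.0), and it is named after its values were seen. With the block, with Y-linked RNA as a covariate, or without mutant replicate 1, 1 of the 5 genes had an unadjusted p under 0.05. The 14 cyclophilins, the other large family of prolyl isomerases, had a median of -0.0058 and 0 genes under that threshold. *Ppia*, the most abundant of them, had 1515 ± 82.3 FPKM (SD, n = 3) among controls and 1535 ± 44.7 (SD, n = 3) in mutants.

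Collagens are major clients of ER prolyl isomerases. Of 14 chains, 13 had a lower mean in mutants, beside 4750 of all 10061 genes tested, with a median log2 difference of -0.19. That median was -0.40 without control replicate 1, -0.28 without mutant replicate 2 and 0.0011 without control replicate 2, so its sign rests on control replicate 2. *Col1a1* was the chain that had an unadjusted p under 0.05. *Col1a1*, a chain of type I collagen, had 140 ± 19.9 FPKM (SD, n = 3) among controls and 105 ± 20.5 FPKM (SD, n = 3) among mutants, a log2 difference of -0.42 (standard error 0.17, limma adjusted p = 1.0), and -0.25 without mutant replicate 3. *Col3a1*, the most abundant chain, had a log2 difference of -0.17 (standard error 0.23). The number of chains under that threshold was 5 with the block, 7 without control replicate 1 and 0 without control replicate 2 or mutant replicate 3.

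Of 15 genes for collagen modification and folding, 14 passed the filter. By their mean 12 were lower, beside 4750 of all 10061 genes tested. The median was -0.10, which became -0.19 without control replicate 1 and -0.0098 without control replicate 2. The gene with an unadjusted p under 0.05 was *P3h3*, a prolyl 3-hydroxylase family member deposited as *Leprel2*. *Leprel2* had 43.1 ± 5.39 FPKM (SD, n = 3) among controls and 32.7 ± 5.31 (SD, n = 3) in mutants, with a log2 difference of -0.39 (standard error 0.14, limma adjusted p = 1.0). *Serpinh1*, the collagen chaperone and most abundant gene of the list, had 427 ± 15.1 (SD, n = 3) and 432 ± 16.8 (SD, n = 3) FPKM. In this list 5 genes were under that threshold without control replicate 1 and 0 without control replicate 2, mutant replicate 2 or mutant replicate 3.

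The 21 ER chaperones and stress genes had a median log2 difference of -0.0095, between -0.11 and 0.088, and 0 of them had an unadjusted p under 0.05. *Calr*, the calcium-binding chaperone calreticulin and the most abundant of them, had 298, 544 and 554 FPKM in controls and 293, 550 and 548 FPKM in mutants, which puts the spread in the first replicates as for *Fkbp4*. Of the 7 genes of the Hsp90 machine, with which *Fkbp4* and *Fkbp5* work, 6 passed the filter and 0 had an unadjusted p under 0.05, with a median of 0.043. The most abundant was *Hsp90ab1*, at 1261 ± 235 FPKM (SD, n = 3) among controls and 1328 ± 287 (SD, n = 3) in mutants.

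Markers of tissue types were set beside the FKBP genes, since dissected faces hold several. The 12 markers of cranial mesenchyme were all over the filter and summed to 514 to 590 FPKM in controls and 478 to 572 in mutants. Of these markers, 9 had a log2 difference below 0 and 3 above it, beside 4750 of all 10061 genes tested below 0. Their median was -0.053, and 0 had an unadjusted p under 0.05. All 9 neuron markers had a higher mean in mutants, beside 5311 of all 10061 genes tested, with a median log2 difference of 0.18. Their sums were 610 to 694 FPKM in controls and 747 to 824 in mutants, which do not overlap. No neuron marker had a control mean under 1 FPKM. Of the neuron markers 3, *Tubb3*, *Elavl3* and *Dcx*, had an unadjusted p under 0.05 and none an adjusted one in limma, where all had 1.0. This number was 6 with the block and 6 without control replicate 1. It was 0 without control replicate 2, and 1 when control replicate 3 or any 1 mutant was left out. Whether a different share of neurons in the dissections has a part in the lower *Fkbp7* and *Fkbp14* was not tested.

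Skeletal muscle markers had a median of -0.43 over 5 tested genes, with sums of 147 to 364 FPKM in controls and 138 to 209 in mutants. The median was -0.19 for epithelium, -0.046 for cartilage and bone, 0.0064 for endothelium, 0.024 for macrophages, 0.13 for forebrain progenitors and 0.41 for erythroid genes. None of these lists had a gene with an unadjusted p under 0.05. Their part in the FKBP values was not tested. The Y-linked genes summed to 0.0989 to 0.217 FPKM in controls and 0.211 to 57.7 in mutants, and *Eif2s3y* was high in mutant replicates 1 and 2 and near 0 in mutant replicate 3. Y-linked RNA marks male embryos, so sex was not balanced between the groups. The part of sex in the genotype differences was not tested, and a fit with Y-linked RNA as a covariate is given below. In mutant replicate 3, *Fkbp7* was at 7.95 FPKM, between the other mutants, and *Fkbp14* was at 6.45 FPKM, the lowest of the 6 samples. *Pax3*, in which the Cre is inserted, had 8.83, 11.9 and 11.1 FPKM in controls and 8.62, 7.59 and 8.36 FPKM in mutants, a log2 difference of -0.33 (standard error 0.12, limma adjusted p = 1.0).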

How the data were processed

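Poly(A)+ RNA of 6 samples was sequenced as paired ends from stranded libraries, and the authors aligned the reads with STAR to GRCm38, with FastQC 0.11.4 and Cuffdiff also named in the submitters' processing notes. Annotation release and the counting step are not given in the sources used here. The authors deposited FPKM for 38553 genes, both sample by sample and in a joint table, with 0 differences between them. Whole reads could not be recovered, since at most 1.58% of ratios of low values coincided in pairs with 1 first replicate, against at least 16.9% in pairs among the others. The depth of each sample could therefore not be worked out from the values, and the study gives it only as a range over samples. No counting intervals are given, and summed FPKM per sample ran from 528123 to 590174.

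Genes over 5 FPKM in all samples of a group (10061) were compared on log2(FPKM + 1) by limma (version 3.58.1, R 4.3.3) with a trend on intensity, no covariate and Benjamini-Hochberg adjustment, after tests on simulated data. An exact permutation test of 3 against 3 cannot go below 0.1. A fold change on this scale understates the change of low genes. Samples were grouped by their labels. Same-numbered samples deviated together (r = 0.64, 0.26 and 0.51), so the numbers were taken as pairs in the replicate block and in the differences within replicate numbers. The pairs come from the values and not from a stated litter. The main fit used no pairing, so its standard errors and p-values are unpaired. Control replicate 3 with mutant replicate 2 gave 0.40 and control replicate 2 with mutant replicate 3 gave 0.23, so the pairing mainly sets the first replicates apart. Named genes were the FKBP genes, those that overlap one or start within 5 kb of its start, *Rbfox2*, *Pax3*, the 5 genes most like *Fkbp7* and *Fkbp14*, and in each list the most abundant gene and those with an unadjusted p under 0.05. The FKBP genes and all lists were chosen with earlier results of these data known. Transcripts and exons were taken from a GENCODE annotation of GRCm38, with transcripts of 0.8 to 1.25 times the length as the like-length class. Alternatives were other pseudocounts, scalings, filters, no intensity trend, a replicate block, a term for the first replicates, replicates 2 and 3 only, a Y-linked covariate and leaving out each sample.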

Additional observations from a re-analysis of the deposited data

How the results depend on the processing

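Over 16 alternatives the log2 difference stayed between -1.504 and -1.32 for *Fkbp7* and between -1.11 and -0.83 for *Fkbp14*. Of the other members, *Fkbp2* kept its sign in 16 of 16, and each of the others changed sign in at least 1, so no direction is given for those. With Y-linked RNA as a covariate the difference was -1.11 for *Fkbp14*, -0.095 for *Fkbp11* and 0.20 for *Fkbp3*. The replicate block and the first-replicate term cannot move a difference in this balanced design, only its error. The same holds for the other filters and for the fit without an intensity trend. These settings are counted among the 16, so their agreement with the main fit was fixed in advance. With 3 samples a group and no read counts, differences as small as those of the other 8 genes could not be resolved, and the cause of each change below was not tested.

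The count of genes with an adjusted p under 0.05 was 3 with a term for the first replicates, 4 on replicates 2 and 3 only and 0 to 5 when 1 sample was left out. The genes higher in mutants at an unadjusted p under 0.05 numbered 232 with the replicate block, 263 with the first-replicate term, 541 on replicates 2 and 3, 116 with a filter of 1 FPKM, 287 with no filter and 39 to 307 with 1 sample left out. The genes lower numbered 372, 348, 589, 188 and 376 in that order of settings, and 39 to 383 with 1 left out.

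For collagen chains the count was 0 under quantile normalization or no filter, 5 with the replicate block, 2 with the first-replicate term, 4 on replicates 2 and 3, and 0 to 7 with 1 left out. On replicates 2 and 3 it was 5 for collagen modification, 3 for cranial mesenchyme, 1 for ER chaperones, 6 for neurons and 1 for other FKBP-domain genes. With 1 left out it was 0 to 5, 0 to 1, 0 to 0, 0 to 6 and 0 to 1 for these lists. Neurons had 6 with the block or the first-replicate term and 0 with the Y-linked covariate, and the other FKBP-domain genes had 1 with the block or that covariate. With 1 left out, the median for neurons was 0.14 to 0.27 and that for the other FKBP-domain genes was -0.12 to 0.069, and it ran from -0.40 to 0.0011 for collagen chains, -0.19 to -0.0098 for collagen modification, -0.064 to 0.10 for cyclophilins, -0.11 to 0.080 for ER chaperones, -0.097 to 0.17 for the Hsp90 machine and -0.11 to 0.0036 for cranial mesenchyme.

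Differences of neighbours that changed sign were, with the Y-linked covariate, 0.13 for *Fancm*, -0.15 for *Leprel4*, 0.030 for *Nt5c3b* and 0.0083 for *Plcb3*, and on replicates 2 and 3 it was -0.054 for *Leprel4*. With 1 sample left out, *Fancm* ran from -0.12 to 0.030, *Leprel4* from -0.053 to 0.10, *Nt5c3* from -0.021 to 0.20, *Nt5c3b* from -0.11 to 0.038, *Plcb3* from -0.23 to 0.032 and *Plekha3* from -0.054 to 0.084.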
